A study of Arabidopsis thaliana with 6 samples.

Results

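The plastid-encoded photosynthesis genes of Arabidopsis thaliana were described in seedlings of the mutant rns2-2 and of the wild type Col-0. They are the loci of the plastid chromosome whose symbols begin with psa, psb, pet, atp, ndh or rbc and that a probe set of the Affymetrix ATH1 array measures alone. The rule found 43 genes, each with 1 probe set, of 13286 loci with a probe set of their own, and the tests ran over 22746 probe sets. They fall into photosystem I (5 genes), photosystem II (15), the cytochrome b6f complex (6), ATP synthase (6), the NADH dehydrogenase-like complex NDH (10) and Rubisco (1). The remaining gene of this kind in the gene table, ndhB, lies in both copies of the inverted repeat, so its probe set was paired with 2 loci and it is not among the 43.

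The seedlings were 10 days old and grew on MS agar with long days, and each genotype had 3 arrays of independent biological samples. rns2-2 is 1 mutant allele in the Col-0 background, named for the ribonuclease gene RNS2, and Col-0 was the wild-type control. RNS2 itself was not analysed here, so the mutant label was not checked against the targeted gene. Whole seedlings were used. Of the green tissue markers, 3 of 25 were measured, all of the light-harvesting gene group LHCB4, and the genotypes overlapped for each. LHCB4.1 averaged 13.60 log2 units in rns2-2 and 13.56 in Col-0, LHCB4.2 averaged 12.95 in rns2-2 and 12.23 in Col-0, and LHCB4.3 averaged 8.73 in rns2-2 and 9.17 in Col-0. Their differences had SEs of 0.091, 0.62 and 0.44, and LHCB4.2 ran from 11.41 to 13.71 within Col-0, highest in replicate 1, so these markers allow no close check of the green tissue. The 3 root markers also overlapped, with differences of 0.20 for PYK10, 0.25 for EXPA18 and 0.11 for EXPA7.

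The plastid keeps a small genome of cyanobacterial origin, which encodes core subunits of the thylakoid complexes and the large subunit of Rubisco, while the nucleus encodes the other subunits. Plastid genes are mostly transcribed in groups of neighbours, and the long transcripts are then cut and trimmed into many forms, so RNA maturation and stability shape transcript levels along with transcription. Plastid transcripts lack the stable poly(A) tails of nuclear messengers. The labelling here amplified from the 3' ends of transcripts, and how well it captured plastid transcripts was not tested.

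Values below are log2 signals of probe sets, and a log2 change is rns2-2 minus Col-0. Of the 43 genes, 35 had a lower mean in rns2-2 and 8 a higher mean, where 57.2% of all probe sets were lower. None passed the adjusted threshold of 0.05 (limma, Benjamini-Hochberg over all probe sets; adjusted p from 0.281 to 0.938), where 0.0044% of all probe sets passed. At an unadjusted limma p under 0.05, 14 genes were lower (32.6%, against 5.31% of all probe sets) and 0 were higher (against 5.35%). That count was 7 without Col-0 replicate 1 (8.46% of all probe sets were then lower), 9 without Col-0 replicate 3 (2.67%) and 8 without rns2-2 replicate 1 (6.62%). Without rns2-2 replicate 2 it was 7 (3.32%), and psbE and ndhA were then higher (against 3.94%). The count of lower genes was 15 without Col-0 replicate 2 (3.46%) and 18 without rns2-2 replicate 3 (3.12%). The median log2 change of the 43 genes was -0.46, and that of all probe sets was -0.04. In whole seedlings, fewer cells or plastids with these transcripts and less RNA in each cannot be told apart.

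The 6 arrays did not contribute alike. The highest value of a gene was in a Col-0 array for 34 of the 43 genes, 28 of them in replicate 1. The lowest was in an rns2-2 array for 36 genes, 23 of them in replicate 2 and 13 in replicate 1. All 3 rns2-2 arrays lay below all 3 Col-0 arrays for 11 genes (25.6%, against 11.2% of all probe sets), and above them for ndhA alone (against 7.23%). Replicates 2 and 3 of a genotype differed across the 43 genes with an SD of 0.44 log2 units in rns2-2 and 0.40 in Col-0. Replicate 1 stood farther from them, with SDs of 0.65 and 0.73 in rns2-2 and 0.77 and 0.79 in Col-0, so some results are also given without it. Between rns2-2 replicate 3 and Col-0 replicate 2 the SD across the 43 genes was 0.35, less than within either genotype. Over all probe sets it was 0.55, against 0.31 between replicates 2 and 3 of rns2-2 and 0.20 between those of Col-0. Replicate 1 did not sit with its genotype over all probe sets. For Col-0 replicate 1 the SDs were 0.582 and 0.576 within Col-0, and 0.536, 0.506 and 0.556 to rns2-2. For rns2-2 replicate 1 they were 0.588 and 0.614 within rns2-2, and 0.536, 0.583 and 0.581 to Col-0. With replicates 2 and 3 only, 37 of the 43 genes were below 0 and the median log2 change was -0.31. There petL had -0.86, against -1.67 with all arrays, atpF -0.69 against -1.43 and psaI -0.55 against -0.92. In that fit 8 of the 43 genes passed the adjusted threshold, each with a lower mean in rns2-2, where 7.04% of all probe sets passed as lower. Those 8 were psbA, psbD, psbN, petG, petD, petN, atpI and ndhE. With 2 arrays a genotype, and replicates 2 and 3 close to each other, such p-values may measure partly technical spread.

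**Figure D1:**
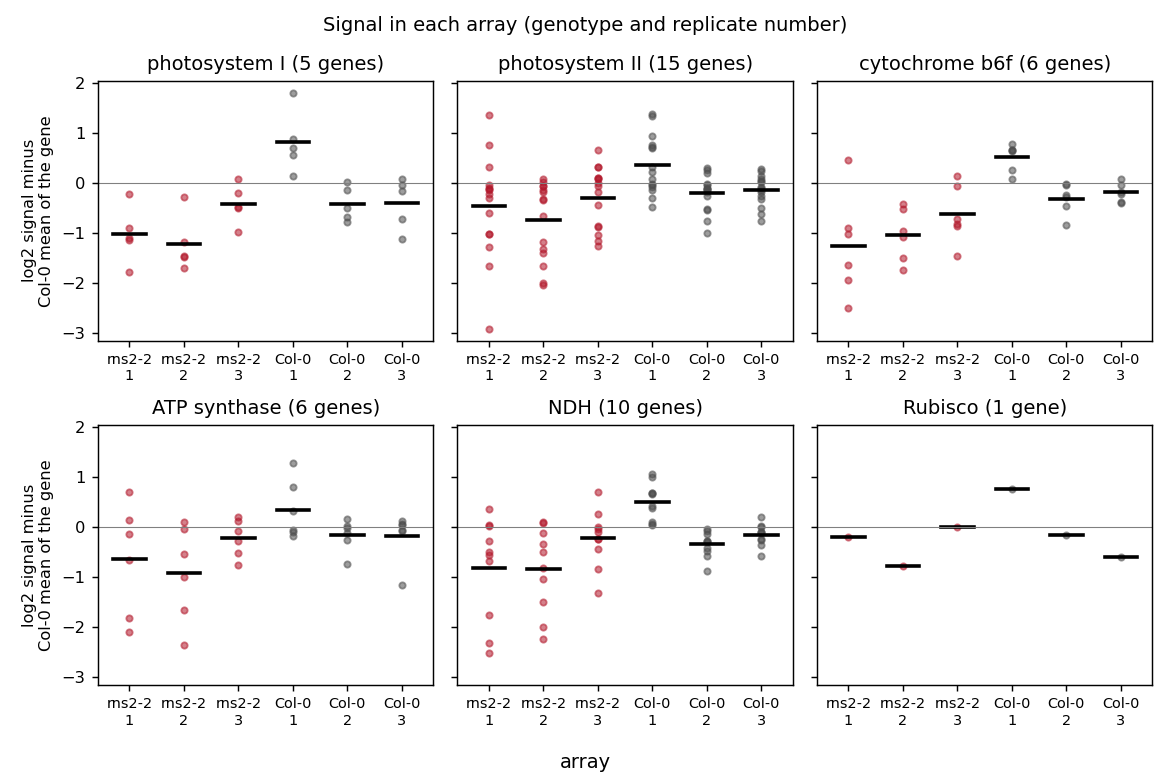
Log2 signal of each gene in each array, minus the gene's mean in Col-0, for the 6 complexes; points are genes, horizontal bars are means over the genes of a complex, red is rns2-2 and grey is Col-0. Col-0 replicate 1 has the highest mean in every complex, up to 0.81 in photosystem I, and rns2-2 replicate 2 the lowest in all but the cytochrome b6f complex, where it is replicate 1.

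Photosystem II splits water, and its reaction centre is built on the D1 protein, from psbA, and the D2 protein, from psbD. psbD stood at 6.66, 6.28 and 7.27 in rns2-2, against 9.08, 8.07 and 7.82 in Col-0. The genotypes did not overlap, and the log2 change was -1.58 (SE 0.40; limma adjusted p = 0.335). psbA stood at 8.96, 10.70 and 10.99 in rns2-2, against 12.59, 11.35 and 11.70 in Col-0. All rns2-2 arrays were lower, by a log2 change of -1.66 (SE 0.60; limma adjusted p = 0.429), and the lowest value was in rns2-2 replicate 1 and the highest in Col-0 replicate 1. The log2 change was -1.03 without rns2-2 replicate 1 and -0.68 with replicates 2 and 3 only.

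The inner antenna proteins CP47 and CP43, which pass light energy to the reaction centre, come from psbB and psbC. psbB stood at 7.02, 6.66 and 7.18 in rns2-2, against 9.43, 7.30 and 7.44 in Col-0, without overlap. Its log2 change of -1.10 (SE 0.57) shrank to -0.41 without Col-0 replicate 1. psbC stood at 10.61, 9.88 and 10.76 in rns2-2, against 12.15, 11.03 and 10.45 in Col-0, where the genotypes overlapped (log2 change -0.80, SE 0.47, and -0.32 without Col-0 replicate 1).

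psbN, needed for assembly of the photosystem II reaction centre in tobacco, stood at 7.36, 6.73 and 7.12 in rns2-2, against 9.08, 7.85 and 8.24 in Col-0. The genotypes did not overlap (log2 change -1.32, SE 0.34; limma adjusted p = 0.336). psbT, a small subunit at the dimer interface, had a log2 change of -1.49 (SE 0.60) without overlap, and -0.82 without Col-0 replicate 1. The other 9 photosystem II genes lay closer to 0. psbE and psbF encode the 2 subunits of cytochrome b559, and their log2 changes were 0.43 (SE 0.28) and 0.15 (SE 0.18). That of psbE was 0.27 without Col-0 replicate 1, 0.26 without rns2-2 replicate 1 and 0.71 without rns2-2 replicate 2. The small subunit genes psbH and psbK stood at 0.31 and 0.093. psbZ had -0.30, psbL -0.13, psbM -0.098, psbI -0.069 and psbJ -0.036. The genotypes overlapped for these 9 genes. Over the complex, 11 of 15 genes were below 0 and the median log2 change was -0.13, which ran from -0.24 without rns2-2 replicate 3 to -0.063 without Col-0 replicate 3.

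All 6 genes of cytochrome b6f, which carries electrons between the photosystems, were measured, and 5 were below 0 with a median log2 change of -0.94. petG, a small subunit that the complex needs in tobacco, had the smallest p of the 43 genes. It stood at 4.51, 4.96 and 4.99 in rns2-2, against 7.12, 6.17 and 6.07 in Col-0, a log2 change of -1.63 (SE 0.31; 95% interval -2.38 to -0.88; limma adjusted p = 0.281). All values but that of Col-0 replicate 1 lay below the array medians of 6.51 to 6.66. Detection calls were not used, so whether such low signals stood above background was not tested. petG alone passed without Col-0 replicate 1 (log2 change -1.30, limma adjusted p = 0.0458; 0.914% of all probe sets passed as lower) and with array weights (-1.33, limma adjusted p = 0.0449; 0.994% passed as lower).

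petD, for subunit IV, stood at 4.67, 4.61 and 4.83 in rns2-2, against 6.33, 5.22 and 5.51 in Col-0. The genotypes did not overlap (log2 change -0.99, SE 0.29; limma adjusted p = 0.361), but all 6 values lay below the array medians. The small subunit gene petN had a log2 change of -0.90 (SE 0.28) without overlap, which was -0.58 without Col-0 replicate 1, and petL, another small subunit, -1.67 (SE 0.57) with overlap. petA, for cytochrome f, stood at 10.91, 12.02 and 12.48 in rns2-2, against 12.62, 12.50 and 12.51 in Col-0. The rns2-2 values were all lower, though replicate 3 only narrowly so, and the log2 change of -0.74 (SE 0.39) was -0.29 without rns2-2 replicate 1. petB, for cytochrome b6, stood at 12.93, 12.04 and 12.61 in rns2-2, against 12.72, 12.43 and 12.25 in Col-0. Its log2 change of 0.060 had a 95% interval of -0.55 to 0.67.

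Photosystem I reduces ferredoxin, and its 5 genes were all below 0, with a median log2 change of -0.94. This median was -0.51 without Col-0 replicate 1 and -0.40 with replicates 2 and 3 only. Its reaction centre is a pair of large proteins from psaA and psaB. psaA stood at 5.74, 5.40 and 6.68 in rns2-2, against 7.75, 6.73 and 6.15 in Col-0, with overlap (log2 change -0.94, SE 0.49). It was -0.50 without Col-0 replicate 1, and 3 of the 6 values lay below the array medians. psaB stood at 13.17, 13.12 and 13.47 in rns2-2, against 13.54, 13.42 and 13.23 in Col-0, a log2 change of -0.15 (SE 0.14) with a 95% interval of -0.49 to 0.20. The genotypes overlapped for both.

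The small subunit gene psaI stood at 10.87, 10.79 and 11.49 in rns2-2, against 12.52, 11.46 and 11.92 in Col-0 (log2 change -0.92, SE 0.32; limma adjusted p = 0.415). psaJ, another small subunit, stood at 10.21, 9.42 and 10.62 in rns2-2, against 11.82, 10.34 and 11.20 in Col-0 (log2 change -1.04, SE 0.46, and -0.69 without Col-0 replicate 1). For both, rns2-2 replicate 3 overlapped with Col-0 replicate 2. psaC, for the protein that holds the terminal iron-sulfur clusters, had a log2 change of -1.41 (SE 0.76), which was -0.51 without Col-0 replicate 1, the array where it stood at 8.34.

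ATP synthase uses the proton gradient to make ATP. Its catalytic head is built from the alpha and beta subunits. atpA, for alpha, stood at 11.74, 11.88 and 12.53 in rns2-2, against 12.30, 12.39 and 12.54 in Col-0 (log2 change -0.36, SE 0.22). This was -0.20 without rns2-2 replicate 1 and -0.60 without rns2-2 replicate 3. atpB, for beta, stood at 14.04, 14.01 and 14.10 in rns2-2, against 13.71, 14.06 and 13.94 in Col-0 (log2 change 0.15, SE 0.12), and the genotypes overlapped for both genes. atpE, for epsilon, had the brightest probe set of the 43, at 14.11, 14.20 and 14.16 in rns2-2, against 14.18, 14.25 and 14.30 in Col-0, a log2 change of -0.086 (95% interval -0.31 to 0.14).

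The membrane part of ATP synthase includes the products of atpF, atpH and atpI. atpF, for the stalk subunit b, stood at 7.05, 7.49 and 8.62 in rns2-2, against 9.96, 8.42 and 9.07 in Col-0. Replicate 3 of rns2-2 overlapped with replicate 2 of Col-0, and the log2 change was -1.43 (SE 0.53; limma adjusted p = 0.439). atpH, for the ring subunit c, stood at 8.37, 7.83 and 9.91 in rns2-2, against 11.47, 10.07 and 9.04 in Col-0, with a wide spread in both genotypes (log2 change -1.49, SE 0.76, and -0.85 without Col-0 replicate 1). atpI, for subunit a, was below the array medians on all 6 arrays and had a log2 change of -0.35 (SE 0.46). Its highest value, 5.98, was in rns2-2 replicate 1. The log2 change was -0.88 without that array (limma adjusted p = 0.176) and -0.029 without rns2-2 replicate 2, and it passed with replicates 2 and 3 only (-0.73, limma adjusted p = 0.0175). Over the 6 genes of ATP synthase the median log2 change ran from -0.54 without rns2-2 replicate 1 to -0.19 without rns2-2 replicate 2.

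NDH takes part in cyclic electron flow around photosystem I. Of its 10 genes 8 were below 0, with a median log2 change of -0.45 that was -0.12 without Col-0 replicate 1 and -0.073 with replicates 2 and 3 only. With all 6 arrays ndhE, a membrane subunit, had the most negative log2 change of the 43 genes. It stood at 6.18, 6.50 and 7.18 in rns2-2, against 9.50, 7.62 and 8.37 in Col-0, without overlap (log2 change -1.88, SE 0.51; limma adjusted p = 0.352). With replicates 2 and 3 only its log2 change was -1.156, and that of psbD was lower, at -1.165. ndhG, another membrane subunit, stood at 5.83, 5.35 and 6.76 in rns2-2, against 8.65, 7.12 and 7.03 in Col-0, also without overlap (log2 change -1.62, SE 0.55; limma adjusted p = 0.413).

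The membrane subunit gene ndhD had a log2 change of -1.49 (SE 0.57), and the genes of the peripheral arm ndhJ, ndhK and ndhH had -0.65, -0.46 and -0.14, all with overlap. Without rns2-2 replicate 1 that of ndhD was -0.98, and without Col-0 replicate 1 that of ndhK was -0.13. ndhC of the membrane arm had -0.13. ndhA, a membrane subunit, differed the other way. Its rns2-2 arrays stood at 11.87, 11.60 and 12.20, all above 11.55, 11.48 and 11.50 in Col-0 (log2 change 0.38, SE 0.16; limma adjusted p = 0.481). This was 0.23 without rns2-2 replicate 3, and ndhI stood at 0.12. ndhF, the dimmest of the 43, stood at 3.93, 3.99 and 4.25 in rns2-2, against 5.14, 4.07 and 4.25 in Col-0, a log2 change of -0.43 that was -0.11 without Col-0 replicate 1. It and ndhH lay below the array medians on all 6 arrays, and whether their signals stood above background was not tested. The ndhB probe set, outside the 43 genes, had a log2 change of -0.68 (SE 0.31).

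rbcL, for the large subunit of the carbon-fixing enzyme Rubisco, stood at 10.75, 10.18 and 10.95 in rns2-2, against 11.71, 10.79 and 10.36 in Col-0. The genotypes overlapped, and the log2 change of -0.33 (SE 0.38; limma adjusted p = 0.752) had a 95% interval of -1.25 to 0.60. Without Col-0 replicate 1 it was 0.051.

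**Figure D2:**
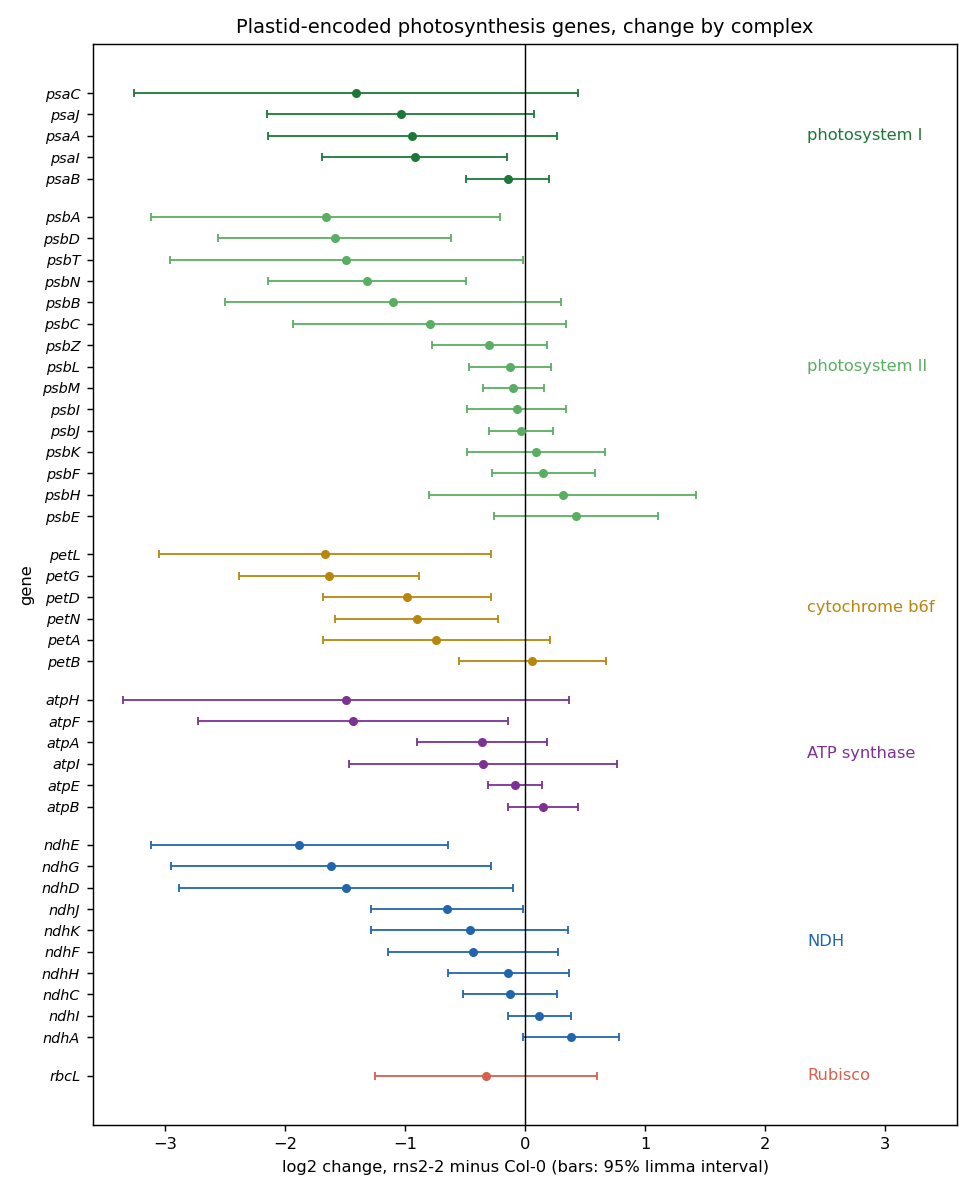
Log2 change (rns2-2 minus Col-0) of the 43 genes by complex, with bars for the 95% interval of the limma fit, unadjusted. The intervals of 14 genes exclude 0, all on the lower side, from ndhE at -1.88 to ndhJ at -0.65, and genes of 1 complex spread widely, as in NDH from -1.88 to 0.38.

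The medians of the complexes ran from -0.94 to -0.13, while genes within NDH ran from -1.88 to 0.38. The genes were therefore also set side by side by textbook transcription units, in which neighbours share long transcripts and are not independent. In the longest unit, ndhH, ndhA and ndhI at one end had log2 changes of -0.14, 0.38 and 0.12, while ndhG, ndhE, psaC and ndhD after them had -1.62, -1.88, -1.41 and -1.49. Those 4 neighbours hold genes of both NDH and photosystem I. With replicates 2 and 3 only, ndhG, ndhE, psaC and ndhD were at -1.02, -1.16, -0.32 and -0.64. In that fit ndhH, ndhA and ndhI were at -0.0075, 0.41 and 0.19. psaC lay below the array median on 5 of 6 arrays, and ndhH lay below it on all 6. In the unit of psbB, psbT, psbH, petB and petD the log2 changes were -1.10, -1.49, 0.31, 0.060 and -0.99, with psbN, on the other strand between psbT and psbH, at -1.32.

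In other units, psbE, psbF, psbL and psbJ ran from -0.13 to 0.43, and petL, petG and psaJ from -1.67 to -1.04. atpB and atpE stood at 0.15 and -0.086, and psbK and psbI at 0.093 and -0.069. psaI and petA stood at -0.92 and -0.74, and ycf4 and cemA between them, outside the 43 genes, at -1.23 and -0.53. Some units spread more. Within psbD, psbC and psbZ the log2 changes were -1.58, -0.80 and -0.30, and within atpI, atpH, atpF and atpA they were -0.35, -1.49, -1.43 and -0.36. psaA and psaB stood at -0.94 and -0.15, and rps14, beside psaB and outside the 43 genes, at -0.71 without overlap. ndhC, ndhK and ndhJ stood at -0.13, -0.46 and -0.65. The differences between neighbours were seen in the values first and were not tested. Gene length, from 90 to 2253 bases, was not related to the log2 change by rank (Spearman's rho 0.045 across the 43 genes, which share the same 6 arrays).

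**Figure D3:**
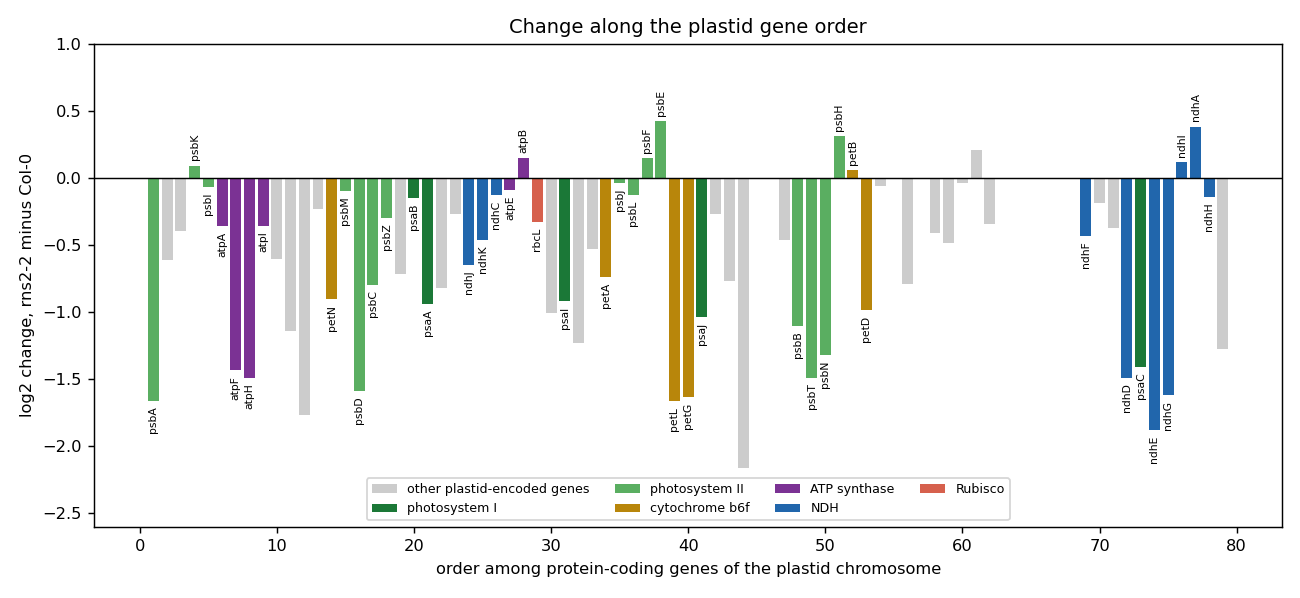
Log2 change (rns2-2 minus Col-0) of the measured plastid genes in their order along the plastid chromosome, by rank among protein-coding genes; colours are complexes and grey bars are other plastid-encoded genes. The run ndhD, psaC, ndhE and ndhG lies between -1.88 and -1.41, next to ndhI and ndhA at 0.12 and 0.38. With replicates 2 and 3 only (not drawn) that run lies between -1.16 and -0.32.

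The log2 change also went with the signal of the probe set, which depends on the probes as well as on the RNA. The 14 genes with a Col-0 mean of 12 or more had a median log2 change of -0.078 and ran from -0.74, for petA, to 0.15. The 13 genes with a Col-0 mean from 8 to below 11 had a median of -1.32, and 8 of them were at least 2-fold lower in rns2-2, where 1.66% of all probe sets and 3.82% of those in this signal range were. The 7 genes between these had a median of -0.92, and the 9 genes below 8 had -0.94. Among all probe sets the medians were 0.013 from 12 up and -0.0063 from 8 to below 11. Across the 43 genes, mean signal and log2 change had a Pearson r of 0.55 and a Spearman rho of 0.61. Across the other 26 plastid genes measured, r was 0.41 and rho 0.57, and their medians were -1.07 from 8 to below 11 and -0.36 from 12 up. All genes share the 6 arrays, and across all 22746 probe sets r was 0.079 and rho 0.19. Whether the brightest probe sets were near the limit of the array was not tested.

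**Figure D4:**
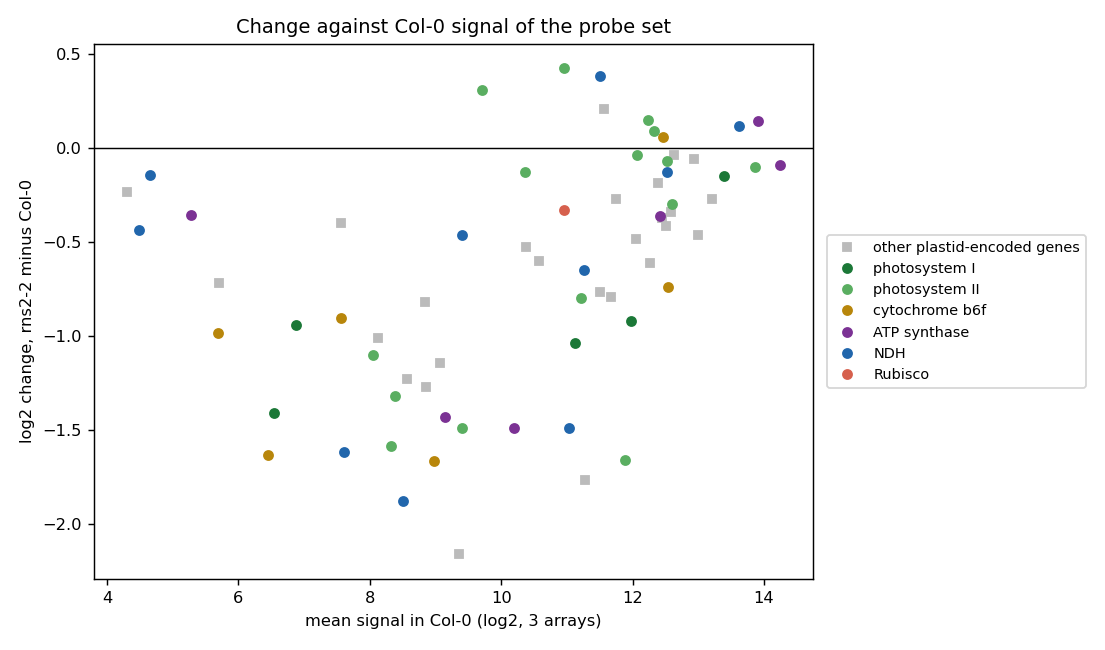
Log2 change (rns2-2 minus Col-0) against mean Col-0 signal, for the 43 genes, coloured by complex, and the other plastid-encoded genes in grey. Genes with a Col-0 mean of 12 or more have a median of -0.078, with petA lowest at -0.74, and those from 8 to below 11 have a median of -1.32.

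The plastid encodes other genes, mostly for its ribosomes and RNA polymerase, and 26 of these were measured. Of them 25 were below 0, with a median log2 change of -0.51, and 0 passed the adjusted threshold with limma. At an unadjusted limma p under 0.05, 9 were lower (34.6%, against 32.6% of the 43 genes and 5.31% of all probe sets). All rns2-2 arrays lay below all Col-0 arrays for 7 (26.9%, against 25.6% of the 43 genes and 11.2% of all probe sets). Lower values were thus not particular to the photosynthesis genes. The nucleus encodes partner subunits of the same complexes, of which 13 of 75 in the gene table were measured. Of these 7 were below 0 and 6 above, with a median log2 change of -0.047, and 0 passed adjusted or at an unadjusted limma p under 0.05. NdhL, an NDH subunit, had a log2 change of -0.22 (SE 0.11) and PSBW, of photosystem II, -0.17 (SE 0.095), each without overlap. The nuclear partners were also brighter, with a median signal at percentile 99.38, against 94.97 for the 43 genes. Those of the 43 genes with a Col-0 mean of 12 or more had a median log2 change of -0.078. The other plastid genes in that range had -0.36. The plastid and nuclear lists thus differ in signal too, and the difference between them was not tested, nor was it at like signal.

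Nuclear genes for plastid transcription, RNA processing and complex assembly were measured for 15 of 77 list entries. Their median log2 change was 0.0092, with 7 below 0 and 8 above, and 0 passed the adjusted threshold with limma. CRR28, a pentatricopeptide repeat protein of plastid RNA editing, stood at 0.31 (SE 0.12, limma adjusted p = 0.44). It was the 1 of the 15 with an unadjusted limma p under 0.05, where 5.35% of all probe sets were higher. Its values lay below the array medians on all 6 arrays. CFM3A, a splicing factor, stood at 0.28 (SE 0.13).

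Averaged over the 43 genes and set relative to the Col-0 mean, the arrays stood at -0.75, -0.89 and -0.32 in rns2-2, against 0.47, -0.27 and -0.20 in Col-0. The genotypes did not overlap, but replicate 3 of rns2-2 lay near replicates 2 and 3 of Col-0. The other plastid genes gave -0.65, -0.96 and -0.32 in rns2-2, against 0.29, -0.20 and -0.087 in Col-0. A sign of RNA quality is the 3' minus 5' log2 difference of actin, GAPDH and ubiquitin controls. It was 0.79, 1.17 and 1.65 in rns2-2, against 2.43, 1.19 and 1.53 in Col-0, and was highest in Col-0 replicate 1, where the plastid means were also highest. It averaged 1.21 ± 0.43 over the rns2-2 arrays, against 1.72 ± 0.64 over those of Col-0 (n = 3 each, ± SD; two-sided exact permutation p = 0.4, where the smallest possible is 0.1). The Bacillus RNA controls added before labelling averaged 5.67, 6.28 and 6.47 in rns2-2, against 5.99, 5.53 and 5.48 in Col-0. The genotypes overlapped for these controls (two-sided exact permutation p = 0.2). The part of RNA quality or labelling in the plastid values was not tested.

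**Figure D5:**
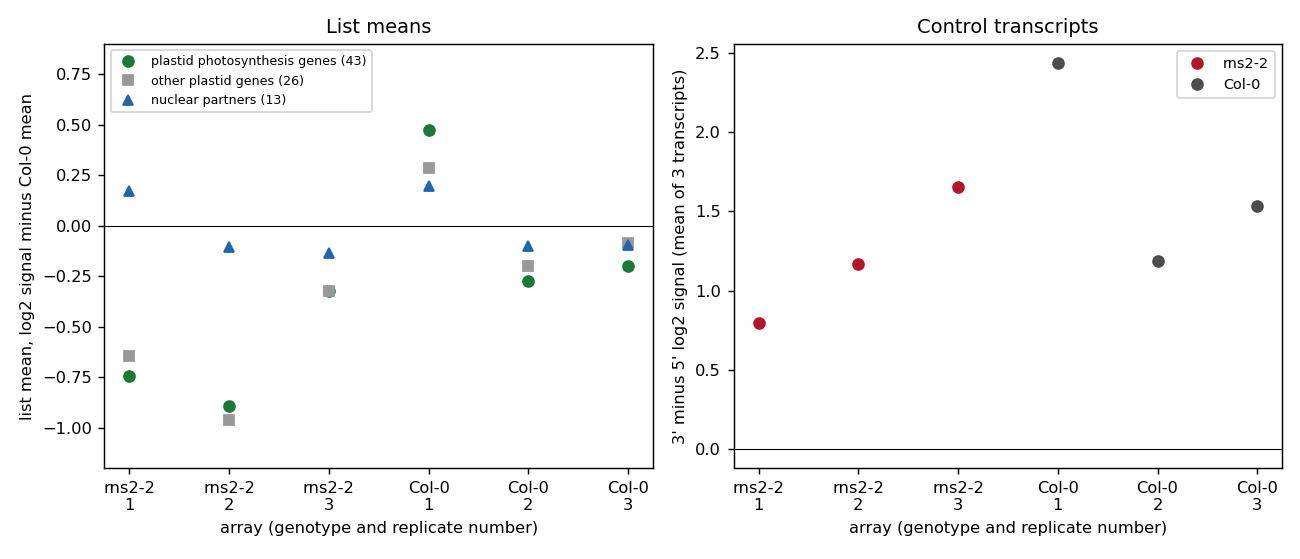
Left, mean log2 signal per array relative to the Col-0 mean for the 43 plastid photosynthesis genes, 26 other plastid genes and 13 nuclear partners; right, the mean 3' minus 5' log2 difference of 3 control transcripts in the same arrays. Both plastid means and the 3' minus 5' difference (2.43) are highest in Col-0 replicate 1.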

How the data were processed

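The files hold 1 log2 value for each probe set on each of 6 arrays, which the authors made with Affymetrix Expression Console, a tool named in the submitters' processing notes. The summary algorithm and any scaling between arrays are not given in the sources used here. That the deposited values are log2 was read from their range (3.21 to 14.49). Detection calls were not used, and 3 arrays a genotype limit the precision. The 64 control probe sets were not tested. Loci came from the platform annotation and the RefSeq gene table (TAIR10.1).

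The fit was rns2-2 minus Col-0 in limma 3.58.1 (R 4.3.3), with moderated variances, two-sided p-values and Benjamini-Hochberg adjustment over 22746 probe sets. On 10 simulated data sets of this comparison with 200 changed probe sets each, it called 50% of 2-fold and 78.5% of 4-fold changes. In the arrays themselves 378 probe sets were at least 2-fold lower in rns2-2, and 1 probe set passed the adjusted threshold. Of the plastid photosynthesis genes 14 were at least 2-fold lower and 0 passed. The simulated rates therefore cannot be read as the chance of calling a change in these genes.

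Values per array are given for the 2 genes per complex with the smallest p, for 12 core subunits, and for the brightest and dimmest gene. They are also given for ndhA, outside these rules, where all rns2-2 arrays lay above all Col-0 arrays. Members and lists were chosen with earlier results of these data known, and transcription units after the values were seen. Of the other lists, up to 4 genes with the smallest p could be named. Alternatives were quantile normalization, median centring, 2 filters on dim probe sets, an intensity trend, array weights, a replicate block, other choices of arrays, and the mean of all probe sets of a locus. The gene table gave no strand, and the mitochondrion-encoded genes were not analysed here.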

Additional observations from a re-analysis of the deposited data

How the results depend on the processing

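The number of the 43 genes past the adjusted threshold was 0 with quantile normalization, median centring, both filters (41 and 36 genes tested), an intensity trend, the replicate block, and replicates 2 and 3 averaged. It was 1 with array weights, 8 with replicates 2 and 3 only, and 0 to 1 without single arrays. At an unadjusted limma p under 0.05 it was 14; without single arrays 7 to 18 genes were then lower (against 2.67% to 8.46% of all probe sets), with 7 without Col-0 replicate 1 and without rns2-2 replicate 2, the fit where psbE and ndhA were higher. The numbers do not pair the arrays: over all probe sets, rns2-2 and Col-0 deviations of replicates 1, 2 and 3 had correlations of 0.059, -0.062 and 0.14, and with the replicate block 12 genes were lower unadjusted (against 4.26%). Of 112 alternative medians, 111 moved by less than the spread between replicates. The NDH median was -0.073 with replicates 2 and 3 only. This count is a weak check. The intensity trend, the replicate block and the mean of probe sets left every log2 change as it was. The spread was also wide, at 0.56 for photosystem I and for Rubisco. Within it, the photosystem I median ran from -1.305 to -0.40 and that of Rubisco from -0.62 to 0.051. The median of all 43 genes ran from -0.67 to -0.31, and from -0.67 to -0.32 without single arrays. Of the 43 genes, 34 kept their sign throughout (30 below 0, 4 above), and none of 21 sign changes passed. With array weights psbK was -0.026, psbI 0.041, ndhC 0.054, psbJ 0.051, psbF -0.0205 and petB -0.041. With replicates 2 and 3 only psbK was -0.049, psbJ 0.046, psbH -0.058 and petB -0.016. Without single arrays psbK ran from -0.15 to 0.22, psbI from -0.15 to 0.065, rbcL from -0.62 to 0.051, psbJ from -0.099 to 0.0061, psbH from -0.21 to 0.64, petB from -0.14 to 0.30 and ndhH from -0.27 to 0.069. Apart from fewer arrays or genes, the cause was not tested. For 4 genes, below the array median on all 6 arrays, low signal limits what can be seen.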
